A study of Bos taurus with 2 samples.

Results

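Golgi glycosyltransferases are the enzymes that build the sugar chains of secreted and membrane glycoproteins and of glycolipids. The genes described here are those whose symbol in the array files is B4GALT, B3GALT, ST3GAL, ST6GAL, ST6GALNAC, ST8SIA, FUT, GALNT or MGAT followed by a number. B4GALT1, which with alpha-lactalbumin makes lactose, was left out. The rule found 60 genes, with 1 to 6 probes each, among 15715 named genes with 33470 probes, and used no measured value.

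Most of these enzymes are type II membrane proteins that sit in successive Golgi cisternae and add 1 sugar each from a nucleotide sugar donor. GALNT enzymes start mucin-type O-glycans, MGAT enzymes branch N-glycans, and B4GALT and B3GALT enzymes extend chains with galactose. Sialyltransferases (ST3GAL, ST6GAL, ST6GALNAC and ST8SIA) and fucosyltransferases (FUT) cap the chains. In the lactating mammary gland they act on milk glycoproteins, on the gangliosides of the milk fat globule membrane and on free milk oligosaccharides.

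The study set RNA of a whey pellet beside RNA of the liquid above it, on 1 array each. Whey of Holstein raw milk was spun at 10000 g for 90 min. The pellet, washed by 2 further spins, is labelled exosome, and the liquid is labelled supernatant. The labels call this step ultracentrifugation, yet the speed they give is low for pelleting small vesicles and may be mistyped. The actual speed, and so what each fraction holds, is uncertain. For each fraction, RNA of 3 raw milks was mixed equally and 100 ng was labelled with Cy3, so both samples are pools. The labels name no treatment and no age of the cows. With 1 array in each group there is no replicate and no test, and every difference is between these 2 arrays.

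Values are processed signals, the scanner software's background-subtracted brightness on a linear scale, and are not scaled between arrays unless stated. The error after ± is the software's own error of the spot's signal, which does not include the spread between preparations. Detected means that the software called a probe well above background, and 1 detected probe was enough for a gene. The dimmest detected probe reached 11.27 on the exosome array, against 8.754 on that of the supernatant. Probes differ in how brightly they report the same amount of RNA, so a signal of one gene is not set against that of another as an amount of RNA.

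All 7 marker genes of secretory mammary epithelium, the casein, whey protein and related milk genes, were detected on both arrays. Their signals were 25538 to 246582 in the exosome pellet and 28.77 to 1168 in the supernatant. Leukocyte markers were detected for 10 of 17 genes in the exosome pellet, with signals of 20.82 to 888.1, and for 9 in the supernatant, while ITGAM, CSF3R, CXCR2, CD3E, CD8A, CD79B and MS4A1 were detected in neither. Of these markers, CD3D, a T cell receptor subunit, was brighter in the supernatant, at 2437 against 888.1. Markers of other cells were 5 of 5 for epithelium, 4 of 5 for myoepithelium, 3 of 3 for fibroblasts and 1 of 3 for red cells on the exosome array. What part the mixture of cell sources has in the values below was not tested. RNA from fewer cells of a type and less RNA per cell cannot be told apart.

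The probes that gave the supernatant signals carry most of what can be compared between the fractions, and are therefore shown. The first set are probes printed whole, 60 bases in the direction given by the files. Each has a reading frame open over its whole length, as do 5 of the 7 probes of the second set, so an open frame does not separate the sets. Capitals mark runs of 4 or more G.
B4GALT4: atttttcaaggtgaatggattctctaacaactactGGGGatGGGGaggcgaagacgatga
B3GALT4: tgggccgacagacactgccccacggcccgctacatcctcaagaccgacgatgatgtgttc
FUT2: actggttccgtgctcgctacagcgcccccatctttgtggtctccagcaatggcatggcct
GALNT7: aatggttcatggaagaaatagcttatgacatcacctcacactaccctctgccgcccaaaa
GALNT10: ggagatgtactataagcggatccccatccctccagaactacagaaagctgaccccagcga

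The second set shows 30 of the 60 bases of 6 further probes that were detected in the supernatant, cut to that length because whether they lie in untranslated sequence was not settled here. The other MGAT4B probe, marked b, stands beside them because it stayed at background there.
MGAT4B a: gggctcgcagccccttcccgccccGGGGtc
MGAT4B b: agcgttccttgtaataaagggttaatgacg
ST3GAL1: actgtggccatgaGGGGtccccgccctgaa
ST3GAL3: ggtgtattatcactttgtgaatctGGGGGG
B4GALT2: ggaagtttcagaacctacttGGGGGagctt
FUT1: acttaacatttcagctcctgaaaaaccaca
ST3GAL2: aggtaggtcccagcacccagcccagatctt

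In build HGSC Btau_3.1, as the files give it, the B4GALT4 probe lies at chr1:64998662-64998721 on the minus strand and the B3GALT4 probe at chr23:7746269-7746328 on the plus strand. The FUT2 probe lies at chr18:55157747-55157806, the GALNT7 probe at chr8:5581023-5581082 and the GALNT10 probe at chr7:65473751-65473810, all on the plus strand. MGAT4B probe a lies at chr7:1489262-1489321 and probe b at chr7:1494777-1494836, and the ST3GAL1 probe at chr14:7387531-7387590, all on the plus strand. The ST3GAL3 probe, at chr3:109004492-109004550, and the FUT1 probe, at chr18:55200124-55200183, lie on the minus strand. For B4GALT2 the files map only 10 bases, chr3:108946312-108946321 on the minus strand, and they give no position for the ST3GAL2 probe. Whether a probe lies in an exon, an intron or an untranslated region was not analysed here.

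The glycosyltransferases had a smaller detected share in the exosome pellet than genes in general. On the exosome array 26 of the 60 genes (43.3%) were detected, beside 69.4% of all named genes. On the supernatant array 11 (18.3%) were detected, beside 23.0%. Both arrays detected 8 of them, beside 21.9% of all named genes, and 3 were detected on the supernatant array alone, beside 1.03%. The exosome array alone detected 18 of the 60, beside 7464 of the 15715 named genes. On neither array 31 (51.7%) were detected, beside 29.6% of all named genes. Genes with more probes have more chances of a detection, so the shares were also set side by side at equal probe number. With 1 probe, 10 of 29 member genes (34.5%) were detected on the exosome array beside 51.5% of all genes. With 2 probes the figures were 11 of 21 (52.4%) beside 74.1%, and with 3 or more probes 5 of 10 (50%) beside 85.6%. Counted by probe, 37 of the member probes (34.6%) were detected on the exosome array beside 62.3% of all named probes, and 11 (10.3%) on the supernatant array beside 13.1%.

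**Figure D1:**
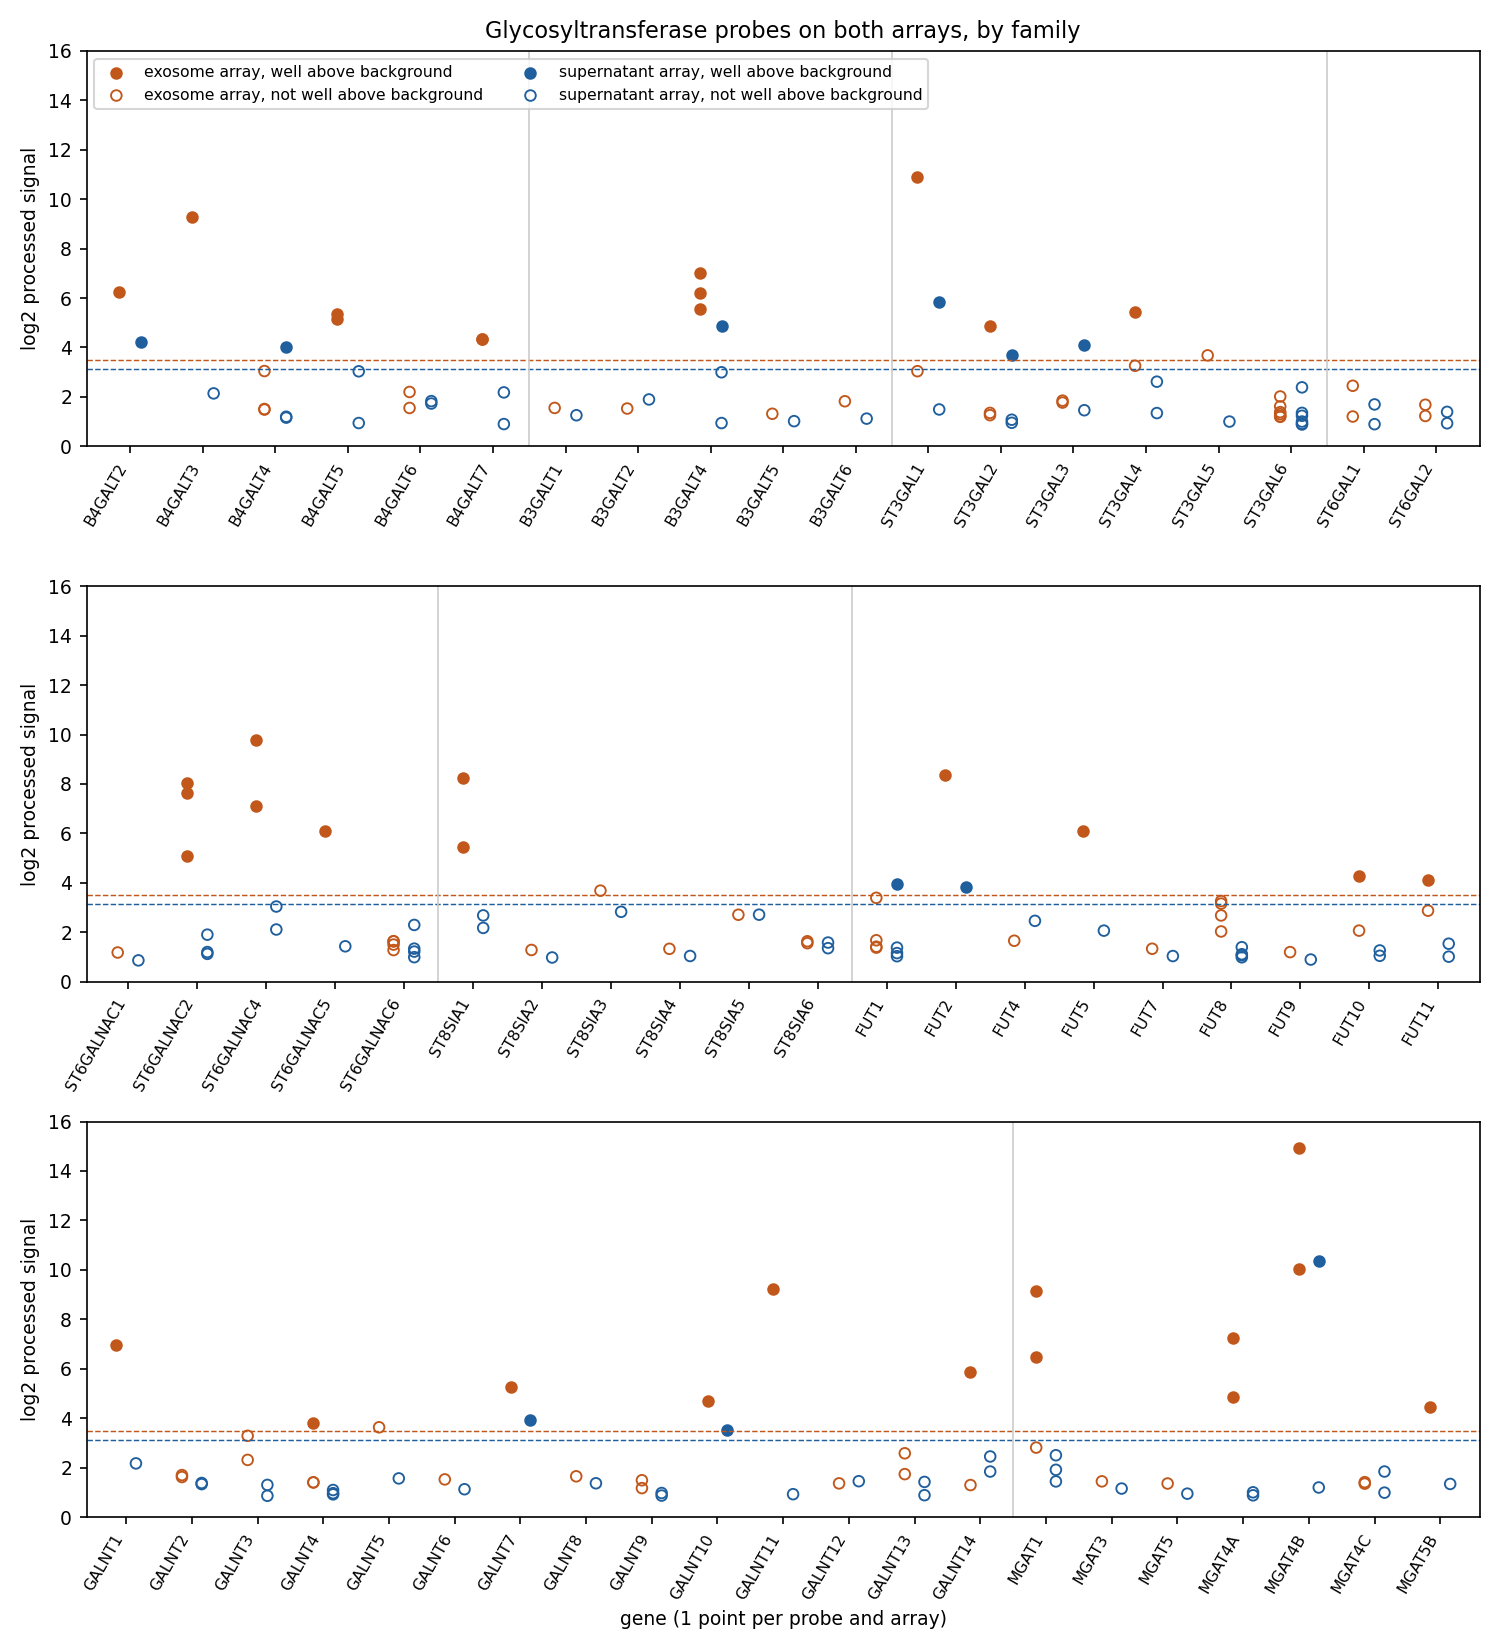
Log2 processed signal (y axis) of every probe of the 60 genes (x axis, grouped by family) on the exosome array (orange) and the supernatant array (blue), with filled points where the probe was well above background and dashed lines at each array's lowest detected signal. The supernatant points are filled for 11 genes with 1 probe each, and the 2 MGAT4B probes lie far apart on both arrays.

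The families differed in how many of their genes were seen. On the exosome array 4 of 6 B4GALT, 1 of 5 B3GALT, 3 of 6 ST3GAL, 0 of 2 ST6GAL, 3 of 5 ST6GALNAC, 1 of 6 ST8SIA, 4 of 9 FUT, 6 of 14 GALNT and 4 of 7 MGAT genes were detected. On the supernatant array ST3GAL had 3, B4GALT, FUT and GALNT had 2 each, B3GALT and MGAT had 1 each, and ST6GAL, ST6GALNAC and ST8SIA had 0. Beside these counts stand 69.4% of all named genes for the pellet and 23.0% for the supernatant. Families were not compared at equal probe number, although the exosome share of all genes rose from 51.5% with 1 probe to 85.6% with 3 or more. With 2 to 14 genes in a family these counts are descriptions of the families on these arrays. Whether the families differ beyond their probe numbers was not tested.

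**Figure D2:**
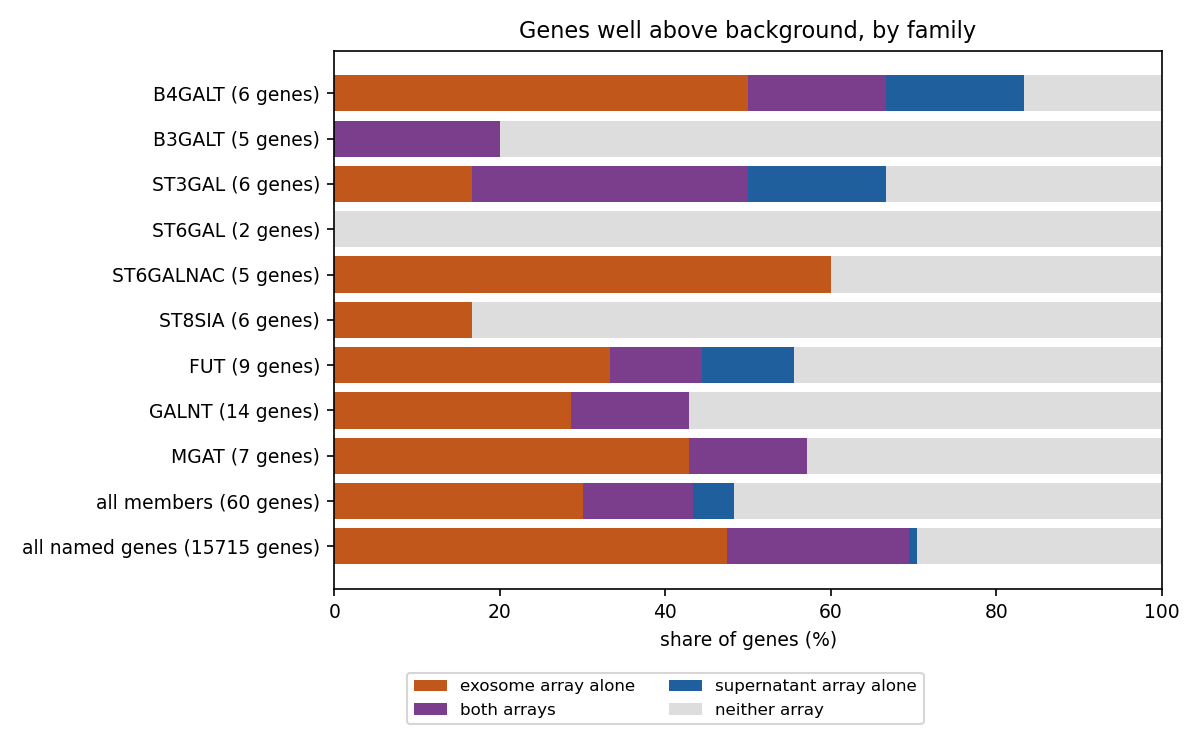
Share of each family's genes (%, x axis) detected only on the exosome array, on both, only on the supernatant array or on neither. All 60 genes and all 15715 named genes stand in the lowest bars, where 51.7% and 29.6% were detected on neither array.

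Mucin-type O-glycosylation starts with the GALNT enzymes, which attach N-acetylgalactosamine to serine and threonine. In the exosome pellet GALNT11 gave 603.3 ± 60.38, and its supernatant signal of 1.904 was not well above background, so the exosome signal was at least 68.92-fold higher before scaling. GALNT1, a broadly expressed starter enzyme, gave 125.0 ± 12.8 there against an undetected 4.514, at least 14.28-fold. GALNT14 was detected by 1 of 2 probes (58.63 in the exosome pellet), and GALNT4 by 1 of 3, at 13.89, close to the lowest detected signal. GALNT7 and GALNT10, which act on peptides that already carry N-acetylgalactosamine, were the GALNT genes seen on both arrays. GALNT7 gave 37.97 ± 4.602 in the pellet and 15.16 ± 2.45 in the supernatant. GALNT10 gave 26.26 ± 3.507 and 11.55 ± 2.212. Both supernatant values lay within 2-fold of that array's lowest detected signal. GALNT2, GALNT3, GALNT5, GALNT6, GALNT8, GALNT9, GALNT12 and GALNT13 were detected on neither array.

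N-glycan branching begins with MGAT1, which adds the first N-acetylglucosamine that hybrid and complex chains need. Of its 3 probes, 2 were detected in the exosome pellet, at 561.3 ± 56.17 and 88.4 ± 9.302, and the third gave 7.032 there. None was detected in the supernatant, where the signals were 2.723, 5.671 and 3.771. MGAT4A and MGAT4B, which add a further branch on the same arm of the chain, were both detected in the exosome pellet. MGAT4A gave 151.2 ± 15.28 and 29.19 ± 3.945 with its 2 probes and was at background in the supernatant.

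MGAT4B held the brightest member probe and, among genes with several probes detected in the exosome pellet, the widest gap between them. Probe a gave 31418 ± 3142 in the pellet and 1297 ± 129.7 in the supernatant. Probe b gave 1046 ± 104.6 and 2.298 ± 2.29, the second not well above background. On the exosome array the 2 probes thus differed 30.04-fold, and only probe a placed MGAT4B in the supernatant. Probe a starts at base 100 of its transcript and is 86.67% G and C, whereas probe b starts at base 2421 and is 36.67% G and C. Across the array 31 probes had 80% or more G and C, and 67.7% of them were detected in the supernatant against 8.31% of probes below 40%. MGAT5B, a paralogue of the branching enzyme MGAT5 that acts on O-mannose chains, gave 22.17 ± 3.741 in the exosome pellet only. MGAT3, which adds the bisecting N-acetylglucosamine, MGAT5 and MGAT4C were detected on neither array.

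The galactosyltransferases extend the branches. B4GALT3 gave 624.6 ± 62.53 in the exosome pellet and an undetected 4.413 in the supernatant, at least 71.35-fold. This was the largest gene-level lower bound among the 18 genes seen in the pellet alone, and came from 1 probe. B4GALT2, which like B4GALT3 adds galactose to terminal N-acetylglucosamine, gave 76.01 ± 7.951 and 18.75 ± 2.657 and was detected on both arrays. B4GALT5, a lactosylceramide synthase, gave 41.11 and 35.79 with 2 probes in the exosome pellet. B4GALT7, which builds the linker of proteoglycan chains, gave 20.51 and 20.56 with 2 probes that differed by less than their errors. These last genes were detected in the exosome pellet only. B4GALT4 went the other way and gave 16.18 ± 2.828 in the supernatant and 8.258 ± 3.276 in the exosome pellet, where it was not well above background. B4GALT6, the other lactosylceramide synthase, was detected on neither array.

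Of the B3GALT genes, B3GALT4, which makes the ganglioside GM1, was detected. All 3 of its probes were detected in the exosome pellet, at 73.72 ± 7.759, 46.6 ± 5.328 and 129.5 ± 13.14. In the supernatant the first gave 29.58 ± 3.549 and was detected, and the others gave 1.922 and 7.976. The probes of this gene therefore differ in whether they place it in the supernatant. B3GALT1, B3GALT2, B3GALT5 and B3GALT6 were detected on neither array by the probes that carry these symbols. A further probe, which carries no symbol but is described as B3GALT6, gave 18.22 ± 3.489 in the exosome pellet and was detected there.

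Among sialyltransferases ST3GAL1 and ST3GAL2, which cap the core of mucin-type O-glycans, were detected on both arrays, each by 1 probe. ST3GAL1 gave 1902 ± 190.2 in the pellet and 57.32 ± 6.043 in the supernatant, while its other probe gave 8.223 and 2.814, both undetected. ST3GAL2 gave 29.12 ± 3.715 and 12.98 ± 2.245, and its other 2 probes were at background on both arrays. ST3GAL3, which sialylates galactose on N-glycan antennae, was detected in the supernatant alone, at 16.98 ± 3.087 against 3.414 ± 3.409. Its detected probe ends in 6 G, and the other ST3GAL3 probe was at background on both arrays. ST3GAL4, with a similar acceptor, was detected in the exosome pellet alone by 1 of 2 probes, at 43.22 ± 5.088. ST3GAL5, the GM3 synthase, gave 12.81 ± 2.903 in the exosome pellet, which the software did not call well above background. None of the 6 ST3GAL6 probes was detected.

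ST6GAL1, which adds sialic acid in the other common linkage to N-glycan galactose, and ST6GAL2 were detected on neither array, with exosome signals of 2.308 to 5.468 over 4 probes. ST6GALNAC enzymes add sialic acid to N-acetylgalactosamine of O-glycans and gangliosides, and 3 of 5 were detected, in the exosome pellet alone. ST6GALNAC4 gave 868.7 ± 86.9 and 138.5 ± 14.08 with its 2 probes. Averaged over both it was at least 39.63-fold above the supernatant, from bounds of 99.23 and 15.82. ST6GALNAC2 gave 33.83 ± 4.412, 261.4 ± 26.24 and 198.0 ± 19.93 with its 3 probes. Its average was at least 13.77-fold, from bounds of 3.864, 29.86 and 22.61. ST6GALNAC5, which acts on gangliosides, gave 67.82 ± 7.501. Every probe of these 3 genes was detected in the exosome pellet and none in the supernatant. ST6GALNAC1 and ST6GALNAC6 were detected on neither array.

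ST8SIA1 makes GD3, the main ganglioside of bovine milk, and was the ST8SIA gene detected. Its 2 probes gave 43.65 ± 5.052 and 306.1 ± 30.71 in the exosome pellet and undetected signals of 6.423 and 4.525 in the supernatant. The average was at least 13.2-fold, from bounds of 4.986 and 34.97. The polysialyltransferases ST8SIA2 and ST8SIA4, and ST8SIA3, ST8SIA5 and ST8SIA6, were detected on neither array. Of these, ST8SIA3 gave 12.86 ± 3.399 in the exosome pellet, the highest exosome signal among the 67 probes detected on neither array, whose median was 2.937.

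FUT1 and FUT2 both make the H antigen, FUT2 in secretory epithelia. FUT2 gave 328.6 ± 33.01 in the pellet and 14.16 ± 2.948 in the supernatant with its 1 probe. FUT1 gave 15.58 ± 2.912 in the supernatant and an undetected 10.52 ± 3.272 in the exosome pellet with 1 of its 4 probes. The other 3 FUT1 probes were at background on both arrays. FUT5, an enzyme of the Lewis antigen group whose probe RefSeq now assigns to FUT6, gave 68.91 ± 7.461 in the exosome pellet alone. FUT10 and FUT11 gave 19.41 ± 3.285 and 17.48 ± 3.028 there, each with 1 of 2 probes. FUT8, which adds the core fucose of N-glycans, was detected with none of its 4 probes, whose exosome signals were 4.097 to 9.599. FUT4, FUT7 and FUT9, which make Lewis x structures, were detected on neither array by the probes that carry these symbols. A probe without a symbol lies 638 bases from the FUT4 probe on the same strand of chromosome 15, and also 638 bases further along the transcript by the files' positions. It was detected in the exosome pellet, at 15.49 ± 3.312.

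The 8 genes measured on both arrays fell into 3 with a wide gap between the fractions and 5 with a narrow one. The exosome-minus-supernatant difference was 5.05 (log2) for ST3GAL1, 4.60 for MGAT4B and 4.54 for FUT2. It was 2.02 for B4GALT2, 1.32 for GALNT7, 1.32 for B3GALT4, 1.19 for GALNT10 and 1.17 for ST3GAL2. This difference varied between repeated spots of 1 probe by an SD of 0.18 (log2), from 9 probes printed on 4 spots each. The gap between the 2 sets exceeds that spread between spots, but probes of 1 gene can differ by as much. The median of 3379 named genes measured on both arrays by the same probe was 3.50. Relative to it 3 of the 8 lay at least 2-fold above, beside 37.3% of all measured genes, and 5 lay at least 2-fold below, beside 36.6%. Their median relative to that gene was -1.83. For B3GALT4 the narrow difference comes from 1 probe. Its other 2 probes, undetected in the supernatant, bound the difference at 2.41 or more and 3.89 or more. For MGAT4B, probe b likewise gives a larger difference than probe a, at least 6.90. The 5 with a narrow gap had supernatant signals of 11.55 to 29.58, and FUT2, with a wide gap, had 14.16, so both sets hold supernatant signals near the lowest detected one.

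**Figure D3:**
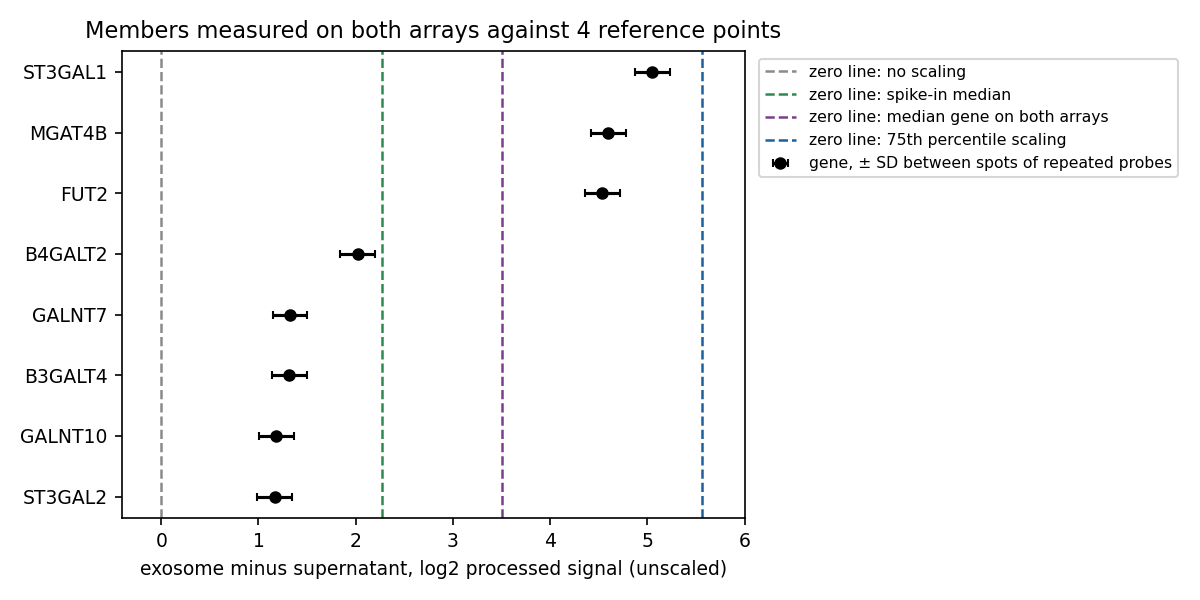
Exosome-minus-supernatant difference in log2 processed signal (x axis) of the 8 genes measured on both arrays (points, with bars of 1 SD between spots of repeated probes), with dashed lines where 4 choices of scaling place equality. All 8 lie right of 0 and left of the line of the 75th percentile, and 3 lie right of the median gene.

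The direction of these differences depends on the scaling. Without scaling all 8 were brighter in the exosome pellet, as were 93.4% of all measured genes. When each array's 75th percentile was subtracted, which moves differences by 5.56, all 8 lay on the supernatant side. The folds ran from 1.426 for ST3GAL1 to 21.08 for ST3GAL2. For the supernatant, the value subtracted stood at 5.241, under the 8.754 of its dimmest detected probe, whereas the exosome value was 247.9. The shift thus sets exosome signal against supernatant background, so it cannot decide the direction for these 8 genes. Spike-in RNA, added at labelling, differed by a median of 2.27 over 8 probes. It leaves ST3GAL1, MGAT4B and FUT2 on the exosome side and the other 5 on the supernatant side. Of those 5, 2 lay at least 2-fold below the spike-in median, and B4GALT2, at 2.02, lay close to it. The order of the 8 genes is the same under each of these constant shifts.

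For the 18 genes that only the exosome array detected, the lower bounds on the unscaled fold ran from 1.587, for GALNT4, to 71.35, for B4GALT3, and 16 reached 2-fold. Their median bound was 7.667, beside 14.37 for all named genes of that kind, for which the share reaching 2-fold was not counted. After scaling to the 75th percentile 2 of the 18 bounds stayed above 1, and 0 reached 2-fold. The 3 genes detected in the supernatant alone had small bounds before scaling: at least 1.506-fold for ST3GAL3, 1.436-fold for B4GALT4 and 1.382-fold for FUT1. After that scaling they were at least 71.24-fold, 67.9-fold and 65.37-fold. These sizes come almost wholly from the shift, whose supernatant percentile lies below the lowest detected signal. The 3 supernatant signals were 16.98, 16.18 and 15.58, each within 2-fold of that lowest signal.

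Each of the 11 genes detected in the supernatant was detected there by 1 probe. In 4 of them, B4GALT2, FUT2, GALNT7 and GALNT10, that was the gene's sole probe. In the other 7 genes the remaining probes were not well above background in the supernatant. On the exosome array 31 genes had several probes, and of the 16 of these that were detected, 8 had all probes detected. The probes disagreed in ST3GAL1, ST3GAL2, ST3GAL4, FUT10, FUT11, GALNT4, GALNT14 and MGAT1. Agreement between probes was not counted over all named genes on either array. Whether these genes differ from genes in general in this respect was not tested. Where several probes of a gene were detected, their log2 signals varied by an SD of 1.80 over 9 genes, beside 2.07 over 5877 genes. The spread between repeated spots was measured on the difference between the arrays, so it is not set against these values.

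The probes detected in the supernatant were also described by their bases. A run of 4 or more G (GGGG) occurred in 2 of the 3 probes detected in the supernatant alone, those of B4GALT4 and ST3GAL3. It occurred in 3 of the 8 detected on both arrays (MGAT4B a, ST3GAL1 and B4GALT2), in 7 of 29 detected in the exosome pellet alone and in 10 of 67 detected on neither. Over all 43652 probes the shares in the same order were 32.3%, 18.5%, 10.7% and 11.1%. The letters were searched in the direction printed. On the other strand (CCCC) the run occurred in 6 of the 8 probes detected on both arrays, beside 31.8% of all such probes, and in 0 of 3 detected in the supernatant alone, beside 11.5%. Any probe can hold both runs. None of 34 member probes below 40% G and C was detected in the supernatant, beside 8.31% of all such probes. Without the probes that hold a run of G, 6 of the 11 genes were still detected in the supernatant. The part of base composition in these signals was not tested.

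**Figure D4:**
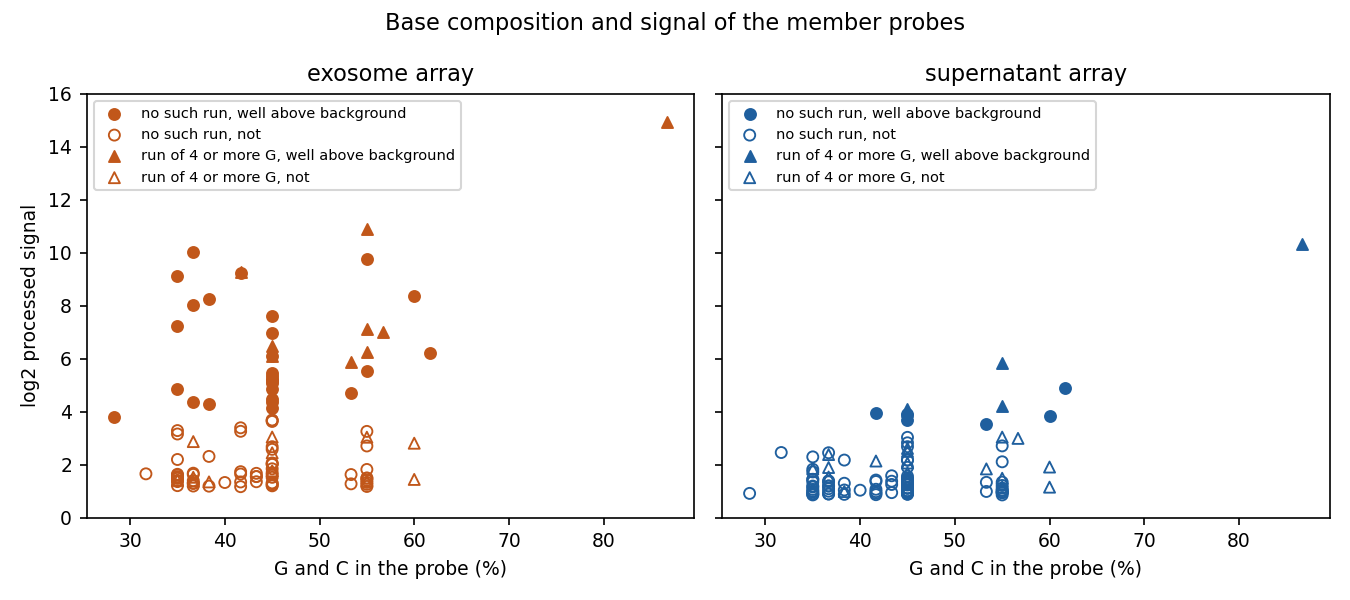
Log2 processed signal (y axis) of the member probes against their content of G and C (%, x axis) on the exosome array (left) and the supernatant array (right), with triangles for probes that hold 4 or more G in a row and filled symbols for detected probes. On the supernatant array every filled symbol lies above 40%, and the MGAT4B probe at 86.67% is the highest on both arrays.

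Some of these genes lie close together in build HGSC Btau_3.1. FUT1 and FUT2 probes lie 45.1 kb apart on chromosome 18, and here FUT2 gave the brighter unscaled signal in the pellet while FUT1 was detected in the supernatant alone. B4GALT2 and ST3GAL3 probes lie 58.2 kb apart on chromosome 3, and both were detected in the supernatant. ST6GALNAC1 and ST6GALNAC2 lie 47.2 kb apart on chromosome 19, where ST6GALNAC2 alone was detected.

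Other genes of glycosylation were detected more often. Of 84 such genes on the array in 7 lists, 69 (82.1%) were detected in the exosome pellet, beside 43.3% of the glycosyltransferases above and 69.4% of all named genes. In the supernatant 13 of the 84 were detected, beside 23.0% of all named genes. All 17 genes that make nucleotide sugars were detected in the exosome pellet. The brightest were NANS, the sialic acid synthase, at 12422, and UGP2, which makes UDP-glucose, at 6926. All 10 subunits of the oligosaccharyltransferase, which moves the first N-glycan onto protein, were also detected, led by OST4 at 5654 and DAD1 at 4312. So were all 6 trimming enzymes of N-glycans, with GANAB at 298.5 and MAN1C1 at 112.8 the highest.

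Of 23 genes of Golgi structure and enzyme retention 22 were detected, with GOLPH3L at 3790 and GOLGA5 at 1537 the highest and COG5 on neither array. Nucleotide sugar transporters gave 8 of 10, with the GDP-fucose transporter SLC35C1 at 2818 and SLC35A4 at 1202, and SLC35A3 and SLC35D1 on neither array. The remaining lists hold further transferases, and their shares lay below the 69.4% of all named genes. O-glycan core enzymes gave 4 of 7, with C1GALT1 at 103.2 and its chaperone C1GALT1C1 at 29.63, and GCNT1, GCNT3 and B3GNT6 on neither array. Chain extension enzymes gave 2 of 11, B3GALNT2 at 245.0 and B4GALNT3 at 46.37. The other 9 were on neither array, namely B3GNT2, B3GNT5, B3GNT7, B3GNT8, B3GNT9, GCNT2, B3GALNT1, B4GALNT1 and B4GALNT2.

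**Figure D5:**
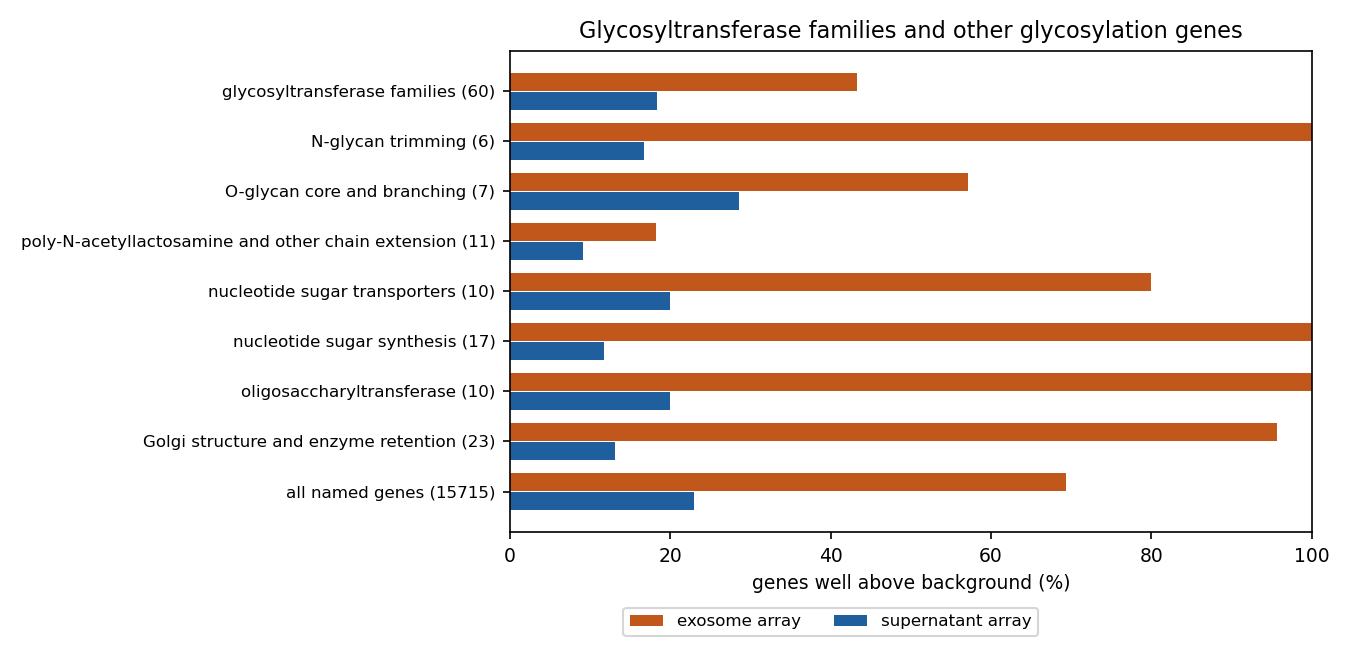
Share of genes well above background (%, x axis) on the exosome array (orange) and the supernatant array (blue) for the 60 glycosyltransferases, 7 lists of other glycosylation genes and all named genes, with the number of genes on the array in parentheses. The exosome share was 43.3% for the glycosyltransferases and 100% for sugar synthesis, the oligosaccharyltransferase and N-glycan trimming.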

How the data were processed

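For each fraction 1 pool of RNA from 3 raw milks was hybridised to 1 array, both on the same slide. The deposited intensity values are processed signals of 1-colour Agilent bovine arrays, read by the authors with Agilent Feature Extraction 10.7.3.1, background-subtracted and detrended within an array, per the file headers. The authors' deposited table of log2 values equals the log2 of those signals within 0.001 for 43603 probes, so it is neither scaled nor centred. Any further step of the authors is not given in the sources used here.

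Leaving out control spots and 5 (exosome) and 2 (supernatant) outlier spots and averaging repeated spots gave 43652 probes, none saturated. The difference of a gene was averaged over probes that both arrays detected and set relative to the median gene. A gene detected on 1 array has a bound from the higher of its dim signal and the lowest detected signal there. It was averaged on the log2 scale over the detected probes alone, so a gene's bound can exceed that of 1 of its probes. Size calls are 2-fold. The number of arrays limits the precision. Gene symbols are those of the files. RefSeq (assembly ARS-UCD2.0) served to look up newer names only, and the accessions of 87 member probes were in it. With its names there would be 64 genes, of which 28 were detected in the exosome pellet.

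The genes, lists and alternatives were chosen with earlier results of these data known. Genes were named with values where detected in the supernatant, highest in their family, or in disagreement between probes. Python 3.11.15, pandas 2.3.3, R 4.3.3 and limma 3.58.1 (normexp with an offset of 50 and quantile normalization, as alternatives) were used. The calculation of differences was tested on simulated data with every probe set as detected on both arrays. That test did not cover the detection calls, signals near the lowest detected one or probes of a gene that disagree.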

Additional observations from a re-analysis of the deposited data

Results flagged for a closer look

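The description of 10 probes without a gene symbol names an enzyme of these families. The counts of the 60 genes do not use these probes. In the exosome pellet 7 of the 10 were detected. The share of all probes without a symbol was not calculated, and the 62.3% of named probes is not a like comparison. The other 3, described as GALNT2, GALNT3 and MGAT5B, gave 6.216, 12.11 and 3.293 there and were not detected. MGAT2, which adds N-acetylglucosamine to the second arm of N-glycans, had 3 such probes, with exosome signals of 267.3 ± 26.84, 560.3 ± 56.1 and 85.55 ± 8.992. In the supernatant the first 2 gave 11.37 and 23.95 and were detected, and the third gave 3.402 and was not. ST6GALNAC3 gave 127.1 ± 13.06 in the exosome pellet, B3GALT6 gave 18.22 ± 3.489 and FUT10 gave 19.57 ± 3.224. A fucosyltransferase described without a number gave 15.49 ± 3.312. Its probe lies 638 bases from the FUT4 probe both in the genome and by transcript position. These 4 were not detected in the supernatant.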

How the results depend on the processing

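Of 59 recalculated values 32 stayed close to the reported one (counts within 1.5 times), 26 moved further and 1 reversed. The 32 include values from the authors' log2 table, which holds the same signals, and values with the few outlier spots kept. Those had little room to move. All 59 cover the glycosyltransferase genes alone. Shares of all named genes were not recalculated, so whether the smaller detected share holds under each setting was not tested. No paired analysis was possible because each group has 1 array, so none could be left out, and both lie on the same slide. With the software's weaker flag 41 genes were detected on the exosome array, 37 on the supernatant array and 30 were measured on both, with a median of -1.31 relative to the median gene, 7 above and 17 below by 2-fold. With detection required of every probe, 18 genes were detected on the exosome array, 4 in the supernatant and 4 on both. At 4 times the lowest detected signal the counts were 16, 2 and 2, the median turned to 1.44 from 2 genes, and 0 lay below. Without a filter 12 lay above and 37 below, and the median log2 exosome signal was 2.60 in place of 6.10. With normexp the median difference was -1.51 and the median log2 exosome signal 7.11, and with quantile normalization the median difference was -0.95. The brightest probe per gene left 1 above. Against 0 (no scaling) 8 lay above and 0 below, against the 75th percentile 0 lay above, and against the spike-in RNA 2 lay below. Without probes holding 4 or more G in a row, an alternative chosen after seeing the data, 6 genes were detected in the supernatant and 5 on both, with a median of -2.28. Leaving out probes of 80% or more G and C, and adding probes named by description (29 of 62 genes in the exosome pellet), were also chosen after seeing the data. Signals of 11.55 to 29.58 in the supernatant, near that array's lowest detected 8.754, limit the narrow differences.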

Other observations

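Pairs of probes on 1 transcript, at least 100 bases apart and with at least 1 of the pair detected in the exosome pellet, were compared by position. In 16 of 22 pairs from glycosyltransferase genes (72.7%) the probe nearer the 3′ end was the brighter on the exosome array, beside 75.7% of 18938 pairs over all named genes. The MGAT4B pair ran the other way, with 31418 at base 100 and 1046 at base 2421. Newer RefSeq names would add GALNT15, at 23.95 in the exosome pellet, and GALNT16, at 123.0, and GALNT17 and GALNT18, which were detected on neither array.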
